A study of Mus musculus with 6 samples.

Results

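Of the 1440 peaks listed for ATRX in wild-type (WT) mouse embryonic stem cells, 690 overlapped no peak of the list for DAXX in DNA methyltransferase knockout (TKO) cells, and these 690 are described here. They were chosen by their positions in these 2 lists, with an overlap of 1 bp enough to leave a peak out, so their absence from the TKO DAXX list is the rule and not a result. The other 750 WT ATRX peaks all matched a TKO DAXX peak at both ends. Together the 690 peaks cover 233332 bp of the mm9 assembly. All are positions of chromatin immunoprecipitation sequencing (ChIP-seq) peaks, places where reads from precipitated DNA pile up.

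The study set ATRX, DAXX and rabbit IgG precipitates side by side in J1 cells, the WT line, and in the TKO line, with 1 library per line and antibody and no replicate. Both lines were grown in embryonic stem cell medium with the inhibitors PD0325901 (1 µM, against MEK) and CHIR99021 (3 µM, against GSK3b). Every library is recorded with fixation in 4% paraformaldehyde for 10 min and with 10 ng of DNA. The antibodies were SC-15408 for ATRX and SC-7152 for DAXX. The labels do not say how many TKO clones were used, and no group has a sample by which its own spread could be measured, so the intervals below are exact (Clopper-Pearson) 95% binomial intervals that cover counting error over peaks only. The peak lists hold no expression or methylation values, so the labelled cell type could not be checked against markers.

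ATRX is a chromatin remodelling ATPase of the SWI/SNF type, and DAXX is its partner, a chaperone for the histone variant H3.3. In embryonic stem cells the pair is known for placing H3.3 at telomeres, pericentromeric satellites and retrotransposons, where chromatin is kept silent by H3K9 trimethylation. ATRX is also known to sit at G-rich tandem repeats. DNA methylation represses many of the same repeats, and the study asked where both proteins are found once it is lost.

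Before the results, the scores of the pair of lists that define these peaks need a description. Each peak carries the authors' score, and on the scale used here 10 points stand for a 10-fold lower p-value of the peak caller. In each list a share of the scores fell on Poisson curves, which give the chance of n or more tags in a window as wide as the peak at 1 background rate for the whole list. The rate that put the greatest number of scores on such curves was computed for each list. For WT ATRX it was 3.237878 per kb (3.237875 to 3.237880, the range that the rounding of the scores allows). For TKO DAXX it was 3.237878 per kb (3.237875 to 3.237882), the same value within rounding. The rates of the other lists were 4.354723 (WT DAXX), 6.100046 (TKO ATRX), 1.543258 (WT IgG) and 4.107471 per kb (TKO IgG). At the rate of WT ATRX, 366 of the 1440 WT ATRX scores (25.4%) lay within 0.01 of a curve, and the rates of WT DAXX, TKO ATRX, WT IgG and TKO IgG left 1, 4, 2 and 4 on one. Of the 750 matched peaks, 95 lay on a curve in both lists, and 94 of these had the same n and the same score in both. Another 100 lay on a curve in the WT ATRX list alone, and 0 of them scored higher in the TKO DAXX list. In the IgG lists, which also give tags, the listed tag count was above n at 372 of 372 peaks on a curve, so n is a number of the score and not the count of tags in the peak. What made the rates and the 750 peaks equal was not tested. The files do not show whether these 2 lists were called from different reads or from the same reads against different controls. If the reads were the same, absence from the TKO DAXX list would mark a difference between 2 calls and not between the proteins or the lines. Every value below that sets the 690 peaks against the 750 therefore describes the lists as deposited, which are called by their labels.

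The 690 peaks were low-scoring. Their scores ran from 70.03 to 163.59, with quartiles at 74.00 and 85.54 and a median of 78.40 (95% interval 77.92 to 79.25), while the 750 matched peaks had a median of 85.17 and reached 416.54. A score of 100 or more was held by 55 of the 690 (7.97%) and by 159 of the 750 (21.2%). The share of WT ATRX peaks absent from TKO DAXX was 58.1% (52.6 to 63.4) at scores from 70 to 75, 61.3% (55.6 to 66.7) from 75 to 80, 47.0% (41.9 to 52.1) from 80 to 90, 35.1% (28.4 to 42.2) from 90 to 100, 32.8% (25.1 to 41.4) from 100 to 120 and 13.0% (6.41 to 22.6) from 120 up. The lowest score of the WT ATRX list was 70.01. These shares are a description of how the rule divided the list.

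Their widths were narrowly spread. The median width was 329 bp (324 to 333), the quartiles were 296 and 357.75 bp, and 335 of the 690 peaks (48.6%) measured 300 to 360 bp, against 226 of the 750 matched peaks (30.1%). On the Poisson curves lay 171 of the 690 (24.8%, 21.6 to 28.2) and 195 of the 750 (26.0%, 22.9 to 29.3), which are similar shares. The curve with n = 11 alone held 121 of the 690 (17.5%) and 116 of the 750 (15.5%), beside 16.5% of all WT ATRX peaks. On this curve the score is fixed by the width: its 1 peak of 240 bp scored 91.15, its 6 peaks of 324 bp scored 77.88 and its 3 peaks of 347 bp scored 74.90. Groups of equal width and score numbered 54 and held 137 of the 690 peaks (19.9%), of which 92 lay on a curve. Among the matched peaks such groups held 117 of 750 (15.6%). Over all 690 the logarithms of width and score had a correlation of -0.084, given as a description of peaks from 1 library.

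**Figure D1:**
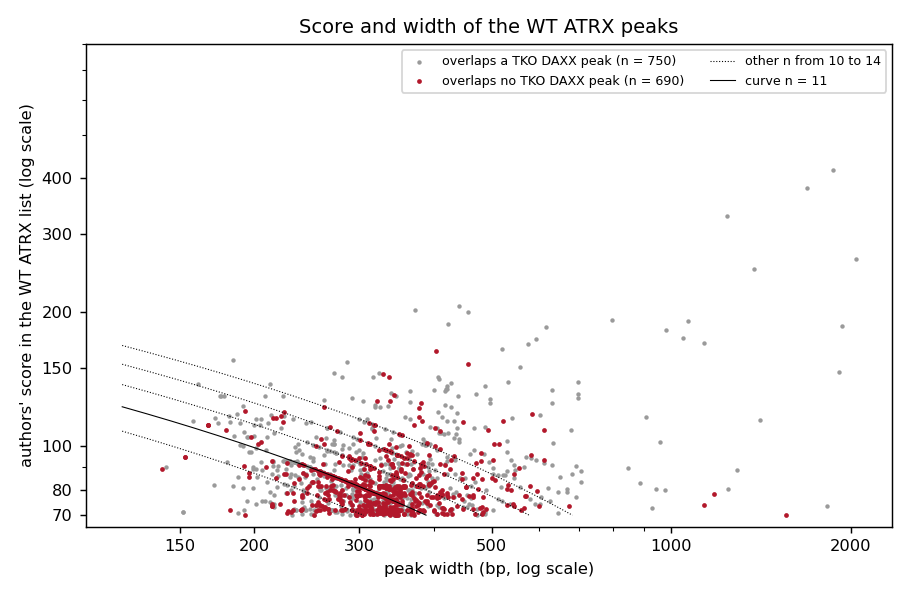
Authors' score against peak width (both on log scales) for every peak of the WT ATRX list. Red points are the 690 peaks that overlap no TKO DAXX peak, grey points the 750 that do, and black lines are Poisson curves at the background rate of the list. The red points end at a score of 163.59, and a row of them follows the solid line (n = 11) down to a width of 347 bp.

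The highest-scoring of the 690 peaks was on chromosome 6, 140129936 to 140130338, with a score of 163.59. It overlapped a WT DAXX peak. The next was farther along the same chromosome, at 140183357 to 140183813 (score 153.25), with its nearest WT DAXX peak 52.9 kb away. These neighbours were the only 2 above a score of 150, and both had an IgG peak of each line within 36.6 kb. They were followed by chromosome 10, 77071759 to 77072087 (145.21) and chromosome 14, 11878933 to 11879268 (143.10). Chromosome 9 held 2 of the top 10, at 115543651 to 115543993 (130.45) and 55083312 to 55083649 (126.45). The last 4 were on chromosome 3, 95686440 to 95686760 (126.31), chromosome 8, 26170750 to 26171129 (124.88), chromosome 11, 48440095 to 48440356 (122.84) and chromosome 18, 84758182 to 84758559 (122.04). Of these 10 the chromosome 6 leader and the chromosome 11 peak overlapped a WT DAXX peak, and 0 overlapped a TKO ATRX or IgG peak. Their nearest TKO DAXX peaks lay between 25.9 and 610 kb away.

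Of the 690 peaks, 658 (95.4%, 93.5 to 96.8) overlapped no peak of the WT DAXX, TKO ATRX or either IgG list. The share was similar over all WT ATRX peaks (94.2%, 92.9 to 95.4) and in the 750 matched peaks (93.2%, 91.2 to 94.9). The remaining 32 of the 690 overlapped at least 1 of these 4 lists, as did 5.76% of all WT ATRX peaks. WT DAXX was the list met most often, at 24 of the 690 (3.48%, 2.24 to 5.13), where the background over all WT ATRX peaks was 2.29% and the matched peaks had 9 of 750 (1.20%, 0.550 to 2.27). TKO ATRX was met by 9 of the 690 (1.30%, 0.598 to 2.46), against 3.82% over all WT ATRX peaks and 46 of 750 matched peaks (6.13%, 4.52 to 8.10). The order of WT DAXX and TKO ATRX was thus opposite in the peaks without and with a TKO DAXX match. Peaks are not replicates of a condition and each list is 1 library, so the difference was not tested. The 24 overlaps are 4.21% of the 570 WT DAXX peaks, and the 9 are 0.545% of the 1650 TKO ATRX peaks.

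The WT DAXX figure rested on weak WT DAXX peaks. That list runs down to a score of 50.02, and the WT DAXX peaks that met the 690 had a median score of 61.36, below the list's own median of 72.25. At a WT DAXX score of 70 or more, 6 of the 690 (0.870%, 0.320 to 1.88) and 7 of the 750 (0.933%, 0.376 to 1.91) kept an overlap, beside 0.903% of all WT ATRX peaks, and the shares of the peaks without and with a TKO DAXX match then differed by less than their intervals. The WT DAXX share was at this score below the TKO ATRX share both in the 690 (1.30%) and in the matched peaks (6.13%). The TKO ATRX partners were stronger, with a median score of 126.09 against a list median of 80.50, and 7 of 9 were above that median. Partners of the matched peaks had higher medians in both lists, 169.93 for TKO ATRX (46 peaks) and 94.16 for WT DAXX (9 peaks).

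**Figure D2:**
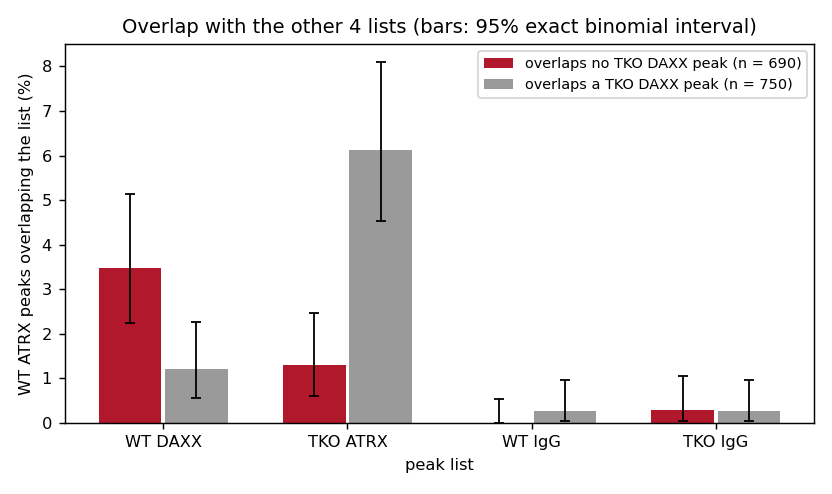
Share of WT ATRX peaks (%) that overlap each of the other 4 lists by 1 bp or more, for the 690 peaks without a TKO DAXX match (red) and the 750 with one (grey); error bars are exact 95% binomial intervals over peaks. Red is higher for WT DAXX (3.48% against 1.20%) and lower for TKO ATRX (1.30% against 6.13%).

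Within the 690, overlap with WT DAXX was concentrated at high WT ATRX scores. In the band from 100 to 120, 10 of 45 (22.2%) overlapped a WT DAXX peak, against 2 of 92 matched peaks (2.17%) in the same band. From 120 up it was 2 of 10, against 5 of 67. Of these 12 peaks with a WT ATRX score of 100 or more, 1 met a WT DAXX peak above 70, the one on chromosome 10 described next. The 10 in the band from 100 to 120 include 3 peaks of 167 bp on chromosome 14 with equal scores and surroundings. These are not independent sites. From 90 to 100 a WT DAXX peak was met by 4 of 68, against 1 of 126 matched peaks. Below a score of 90 one was met by 2 of 198, 3 of 190 and 3 of 179 in the successive bands. The matched peaks of these bands had 0 of 143, 1 of 120 and 0 of 202. The WT DAXX share of the 690 was thus the higher within each of the 6 bands, on few peaks and with WT DAXX scores under 70 included. For TKO ATRX the bands from 100 to 120 and from 120 up held 3 of 45 and 0 of 10, against 9 of 92 and 20 of 67 matched peaks. The lower TKO ATRX share of the 690 was seen within each of the 6 bands, with 0.505% against 2.80% from 70 to 75 and 0.559% against 1.49% from 80 to 90, though on few peaks.

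Of the 24 peaks that overlapped a WT DAXX peak, 17 lay wholly inside it. The centres were 44.5 bp apart in the median and 182 bp at most, values that the choice of overlapping peaks keeps small. The strongest WT DAXX partner was on chromosome 10, where the ATRX peak at 127111722 to 127112131 (score 108.10) met a DAXX peak of score 173.79. Next were chromosome 5, 33015055 to 33015560 (84.26, DAXX 148.47), chromosome 4, 97535666 to 97535955 (93.84, DAXX 147.23) and chromosome 7, 26385705 to 26386050 (75.03, DAXX 122.14). The other 2 with a DAXX score over 70 were chromosome 11, 40902919 to 40903231 (90.16, DAXX 86.92) and chromosome 4, 154783509 to 154783886 (86.06, DAXX 74.62). Then came chromosome 13, 111158870 to 111159247 (116.58, DAXX 69.68), a pair on chromosome 12 with a DAXX score of 64.62 each, and chromosome 13, 66087409 to 66087805 (83.11, DAXX 63.10). The top-ranked ATRX peak of the 690, on chromosome 6, met a DAXX peak of 53.10, among the lowest of the 24.

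At 9 of the 690 peaks the lists labelled WT ATRX and TKO ATRX both had an entry and the one labelled TKO DAXX had none, a description of the lists that is subject to the doubt about their reads given above. On chromosomes 5 and 3 the TKO ATRX peak also covered a TKO DAXX peak, which lay 2 and 9 bp from the WT ATRX peak. The strongest TKO ATRX partner, of score 532.50, met the chromosome 5 peak at 33015055 to 33015560. It was followed by chromosome 3, 144153400 to 144153857 (WT score 77.34, TKO 272.57), chromosome 13, 111158870 to 111159247 (116.58, TKO 174.67) and chromosome 2, 57481882 to 57482146 (78.94, TKO 134.99). Then came chromosome X, 166442978 to 166443447 (91.73, TKO 126.09), chromosome 17, 68090737 to 68090918 (72.16, TKO 105.48) and chromosome 7, 106299821 to 106300173 (91.70, TKO 100.61). Lowest were chromosome 10, 127111722 to 127112131 (108.10, TKO 75.02) and chromosome 18, 77854747 to 77855099 (105.90, TKO 71.96). In 7 of the 9 the TKO score was the higher, but a score moves with the sequencing depth and the control behind its list, so the pair of scores does not measure a change. Of these 9, the peaks on chromosomes 5, 10 and 13 were also in the WT DAXX list, so 3 of the 690 had an entry in the lists labelled WT ATRX, TKO ATRX and WT DAXX.

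**Figure D3:**
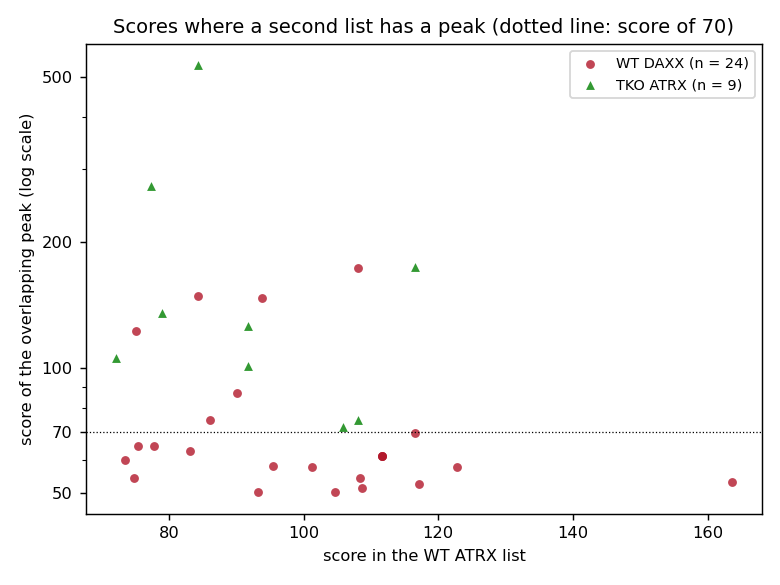
Score of the overlapping peak (log scale) against the WT ATRX score of the same site, for the 24 sites shared with WT DAXX (red circles) and the 9 shared with TKO ATRX (green triangles). Of the circles 18 lie below the dotted line at a score of 70, and all triangles lie above it.

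The rule separates peaks by 1 bp, and 4 of the 690 had a TKO DAXX peak within 1 kb. The chromosome 5 peak ended 2 bp before a TKO DAXX peak at 33015563 to 33015999 (score 99.85), which is itself one of the matched peaks (WT ATRX score 109.77). WT DAXX covers both with 1 peak of 1583 bp, so at that site the sequence without a TKO DAXX peak lies inside a wider WT DAXX region. The TKO ATRX peak there, at 33015214 to 33016169, also covers the TKO DAXX peak. The chromosome 3 peak at 144153400 lay 9 bp from a TKO DAXX peak at 144152958 to 144153390 (score 77.05) that is in no WT ATRX peak. The TKO ATRX peak there is 1286 bp wide and spans both. The peak on chromosome 1, 129961696 to 129962829 (score 74.05, 1134 bp), lay 12 bp from a TKO DAXX peak of score 79.65, and the one on chromosome 4, 117346195 to 117346606 (78.05), 232 bp from a matched peak. The next nearest was 1068 bp away, on chromosome 8. On the other side of the rule every matched peak was covered over 100% of its length, so no WT ATRX peak overlapped TKO DAXX in part.

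Over all 690, the median gap was 281 kb to TKO DAXX and 331 kb to TKO ATRX, and 1013 kb to WT DAXX, 2317 kb to TKO IgG and 4381 kb to WT IgG. The lists hold 2046, 1650, 570, 1057 and 402 peaks in that order, and the part of list size in these gaps was not tested. Over all WT ATRX peaks the median gaps were near these, at 335 kb to TKO ATRX, 1143 kb to WT DAXX, 2461 kb to TKO IgG and 4902 kb to WT IgG. Within 10 kb of a peak lay 34 of the 690 for WT DAXX (4.93%; all WT ATRX peaks 3.40%), 29 for TKO ATRX (4.20%; 6.67%), 17 for TKO IgG (2.46%; 1.74%) and 7 for WT IgG (1.01%; 1.46%). For TKO DAXX it was 28 (4.06%), a number the rule lowers.

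**Figure D4:**
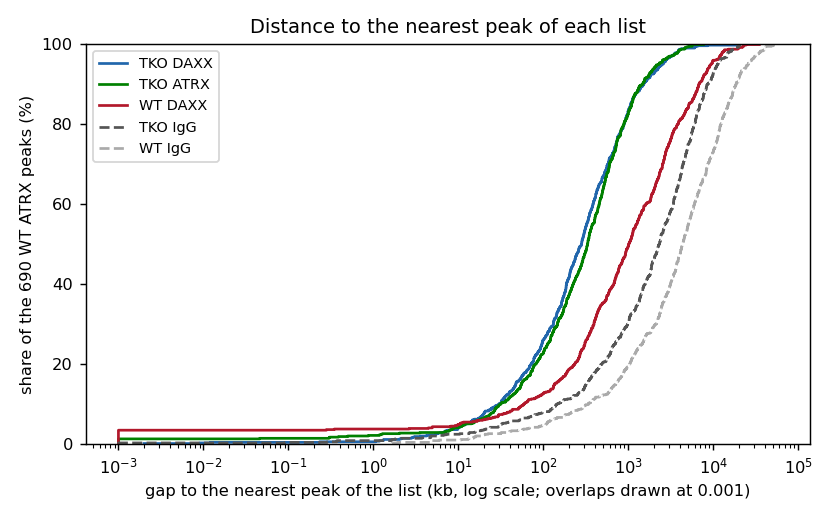
Cumulative share (%) of the 690 peaks by the gap to the nearest peak of each list (kb, log scale), with overlaps drawn at the left edge. The curves for TKO DAXX and TKO ATRX run together (medians 281 and 331 kb), and the WT DAXX curve starts highest at the left because of its 24 overlaps.

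Overlap with the IgG lists was rare. There were 0 overlaps with the WT IgG list, for which the exact 95% interval is 0 to 0.533% and a limit of 3 counts is 0.435%, and 0.139% of all WT ATRX peaks overlapped one. The TKO IgG list was met by 2 peaks (0.290%, 0.0351 to 1.04; all WT ATRX peaks 0.278%), both on chromosome 14. The peak at 4213608 to 4214192 (WT ATRX score 118.50) lay in a TKO IgG peak of 1359 bp with 198 tags, a score of 66.24 and a fold enrichment of 9.56 by the authors. The peak at 93614894 to 93615225 (76.82) lay in one of 1203 bp with 62 tags, a score of 96.92 and a fold enrichment of 18.36. The control library used for each call is not given in the sources used here, so whether IgG signal was already subtracted from the ATRX peaks is not known.

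The peaks were spread over 20 chromosomes. Chromosomes 6 and 8 held the most, 55 each, and chromosome X the fewest, 3. Density was taken per 10 Mb, from the start of each chromosome's coordinates to the last peak end of any list. Chromosome 8 held 4.19, chromosome 19 held 3.91 and chromosome 6 held 3.69, against 0.180 on chromosome X. Their share of the WT ATRX peaks lay between 43.1% and 60.7% on 18 of the chromosomes. Chromosome 11 was lower, at 41 of 134 (30.6%, 22.9 to 39.1), as was chromosome X at 3 of 12 (25.0%, 5.49 to 57.2). On chromosome 15 it was highest, at 37 of 61 (60.7%, 47.3 to 72.9). Chromosome 11 is where the TKO DAXX list is longest, with 402 peaks. Chromosome 8, with 253 TKO DAXX peaks, did not share this: 55 of its 112 WT ATRX peaks (49.1%, 39.5 to 58.7) were without a match.

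**Figure D5:**
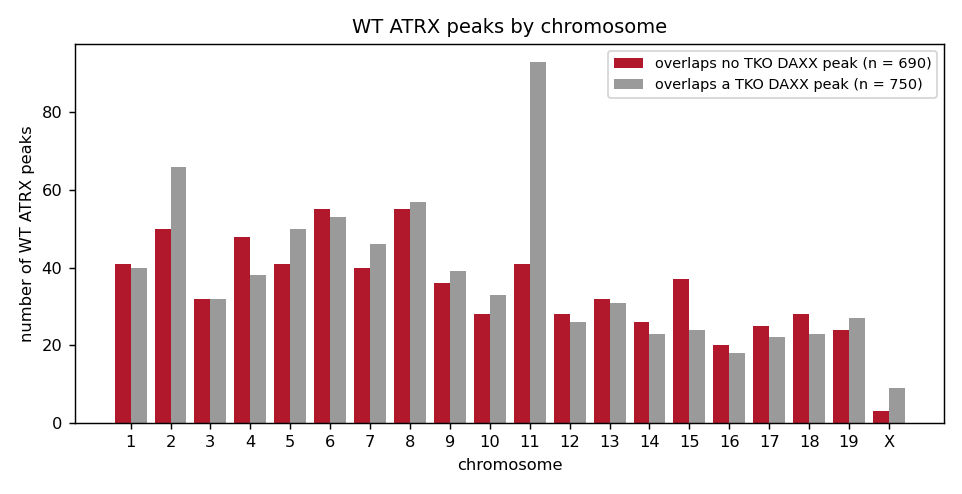
Number of WT ATRX peaks on each chromosome, without (red, n = 690) and with (grey, n = 750) a TKO DAXX match. The pairs of bars are close on most chromosomes, and chromosome 11 departs with 41 against 93.

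Along the chromosomes the 690 peaks lay more in the distal part. Each chromosome was divided into 5 equal parts, from the start of its coordinates to the last peak end of any list. The part farthest from the centromere held 210 of the 690 (30.4%, 27.0 to 34.0) and the others 107 to 133 each. The matched peaks had a like profile, with 242 of 750 (32.3%, 28.9 to 35.7) in the farthest part. The first 10 Mb, next to the centromere in mouse chromosomes, held 40 of the 690 (5.80%, 4.17 to 7.81) and 57 of the 750 (7.60%). The last 10 Mb held 103 (14.9%, 12.4 to 17.8) and 116 (15.5%). The lowest start among the 690 was 3227462, on chromosome 6. How much of the first 10 Mb could hold a peak was not tested. The share of the first 10 Mb is therefore not set against that of the last 10 Mb. The same limit applies to the part of the 5 nearest the centromere. Counted among the 690 alone, 614 had no other within 100 kb, 32 pairs did, and the largest groups were 4 trios. Matched peaks nearby were left out, and no such count was made over all WT ATRX peaks. Whether the 690 differ in this was thus not tested. One trio was on chromosome 4, at 144999613 to 145000058 (score 86.95), 145069070 to 145069574 (101.45) and 145073499 to 145073821 (97.91), between 18.6 and 23.1 kb from TKO ATRX peaks. The others were on chromosomes 3, 5 and 15, between 123146669 and 123214433, 123613095 and 123640504, and 99519547 and 99556650.

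A few of the 690 recurred with the same surroundings. On chromosome 14, peaks of 167 bp at 5659252, 5945304 and 6748855 all scored 111.61. Each lay in a WT DAXX peak of 185 bp that scored 61.36, and their nearest WT IgG peaks were 4755, 4760 and 4755 bp away and their nearest TKO IgG peaks 4732, 4737 and 4732 bp. On the same chromosome, peaks at 5352544 (score 92.68) and 6537592 (93.24) lay 1664 and 1665 bp from a WT IgG peak. On chromosome 4, peaks of 214 bp at 145855220 and 146400576 both scored 73.44, and both were 4935 bp from a WT DAXX peak and 372 bp from a TKO IgG peak. The chromosome 12 pair, 353 bp each at 19331569 and 20547715, scored 77.80 and 75.41 and lay in WT DAXX peaks of 678 bp with equal scores. Such groups held 9 of the 690 peaks and 5 of the 24 WT DAXX overlaps. Spacings of at most 50 kb counted as the same when they agreed within 10 bp. For overlaps, the peaks of the other list had to be equal in width and score. Peaks of 153 bp on chromosome X, both scoring 94.70, lay 23610 and 23595 bp from a TKO IgG peak, outside this limit. Members of a group are not independent sites in these counts.

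The extremes of width were also few. The widest were on chromosome 17, 6513503 to 6515060 (1558 bp, score 70.20), chromosome 14, 8076495 to 8077673 (1179 bp, 77.99) and the chromosome 1 peak of 1134 bp beside TKO DAXX. All 3 had scores below the median of the 690. The narrowest was on chromosome 2, 18052065 to 18052204 (140 bp, 88.99), followed by 2 on chromosome X at 120529219 to 120529371 and 120970744 to 120970896, each of 153 bp and each with a score of 94.70.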

How the data were processed

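Each of the 6 libraries has 1 list of peaks on mm9. Per the submitters' processing notes the tools include Bowtie2 and Picard. Peak names in the ATRX and DAXX lists begin with MACS. Of the caller, settings and controls were not given. In the deposited ATRX and DAXX lists the authors give a score per peak. The IgG tables deposited by the authors give a tag count, a score headed as minus 10 times the log10 p-value, and a ratio, the fold enrichment. In the ATRX and DAXX lists 15.3% to 27.2% of scores lay on Poisson curves of that scale, so all were read on it.

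BED starts were moved to count from 1. Overlaps, gaps and intervals were computed with Python 3.11.15, numpy 2.4.6, pandas 2.3.3 and scipy 1.17.1. The curve rate was the one met by most scores, each taken with its rounding, and a score within 0.01 of a curve counted as on it. This fit was chosen after the data were seen. Tested on simulated data, it returned the planted rate in 3 of 3 lists. The share of scores on curves in the simulated lists was not matched to that of the deposited ones. Library depth is not known from the files. No test between groups was made, since each has 1 library.

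The 690 peaks were chosen with earlier results of these data known, as were the lists compared. Regions named are the 10 highest by score, all that overlap TKO ATRX or IgG, the 10 overlapping WT DAXX with the highest WT DAXX score, the 3 widest, 3 narrowest and 3 nearest to TKO DAXX, and the largest clusters. Other peaks named were picked after their values were seen. The available gene annotation is of another assembly, so genes and sequences were not used here.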

Additional observations from a re-analysis of the deposited data

How the results depend on the processing

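No paired analysis was possible because each group has 1 library. Of 51 recomputed values for 12 results, 38 stayed within 1.5 times (the number of peaks) or within the 95% interval of the value reported. Restricting to a score of 100 or more moved 8 values: the number of peaks to 55, the share overlapping WT DAXX to 21.8%, TKO ATRX to 5.45% and TKO IgG to 1.82%, the median score to 111.61, the median width to 319 bp, and the share in the first 10 Mb to 12.7% and in the last 10 Mb to 18.2%. Under this cut the number of peaks had to fall and the median score had to rise. Among the rest, only the WT DAXX share had an interval on the 55 peaks (11.8 to 35.0%) that left out the value reported. The TKO IgG interval, for example, was 0.0460 to 9.72%. In the upper 50% of the WT ATRX list by score, 268 peaks had no TKO DAXX match, and 5.51% of the upper 50% of the 690 overlapped WT DAXX. WT DAXX peaks of score 70 or more, an alternative added after the data were seen, gave 0.870%. With 100 kb in place of 10 kb the shares near a WT DAXX and a TKO ATRX peak rose to 12.6% and 22.8%, as a wider window must. With a gap of 1 kb counted as overlap, TKO ATRX was met by 2.17% and TKO IgG by 0.870%, within the intervals of the reported shares. Overlap of 50% of the shorter peak, merging of peaks within 1 kb, leaving out chromosomes 8 and 11, and counting repeated sites once, an alternative also added after the data were seen, moved no value out of its interval. Depth, which the files do not give, limits every absence, since a site below a caller's threshold can still be bound.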
